A study of Mus musculus with 6 samples.

Results

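The enzymes that make prostaglandins and leukotrienes were examined in mouse HoxB8 neutrophil progenitors, bone marrow progenitors that the transcription factor Hoxb8 holds in an immature state. The set was given as 10 genes by symbol, and its members are the probe sets that the array annotation assigns to them: 9 of the 22206 probe sets in the table, 1 for each of 9 genes. The remaining gene, the cyclooxygenase Ptgs1, matched no named probe set and was not analysed here. Of the 6 arrays, 3 were of cells that expressed C/EBPα in wild-type form (WT), and the other 3 of cells with its K313 form (K313), a variant linked to acute myeloid leukaemia in the title of the series. C/EBPα is a transcription factor that drives granulocyte formation. All cells had spent 1 day in the same differentiation medium with serum, β-mercaptoethanol and stem cell factor supernatant. How the C/EBPα forms were introduced, whether the cells kept their own Cebpa gene, and whether each group was a clone or a pool was not stated in the sources used here. Separate cultures are not named for the replicates, so the spread behind each p-value is that of these 6 samples and may be technical.

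Eicosanoids are lipid signals made from arachidonic acid, which a phospholipase frees from membranes. Cyclooxygenases turn it into the common precursor of the prostaglandins, and a terminal synthase then sets which prostaglandin is made. Lipoxygenases take the other route, in which an unstable leukotriene epoxide is either hydrolysed to the neutrophil attractant leukotriene B4 or joined to glutathione to give the cysteinyl leukotrienes. Neutrophils are known for the former, and mast cells, basophils and eosinophils for the latter and, in mast cells, for prostaglandin D2.

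Of the 9 measured enzymes, 4 were lower and 2 were higher in K313 at a limma adjusted p under 0.05, and 3 did not pass. Over all probe sets 7.75% passed that threshold, 3.97% lower and 3.77% higher, or 882 lower and 838 higher; with a common median these became 1064 and 727. The falls were in the hematopoietic prostaglandin D synthase Hpgds, the inducible cyclooxygenase Ptgs2, the cytosolic phospholipase Pla2g4a and the leukotriene C4 synthase Ltc4s. The rises were in the lipoxygenase Alox15 and the leukotriene A4 hydrolase Lta4h. The 3 K313 arrays lay wholly outside the range of the 3 WT arrays in 7 of the 9 enzymes, against 21.9% of all probe sets. The median change over the 9 was -0.43 on the log2 scale and the median size of change, without its sign, was 1.11, against 0.02 and 0.18 over all probe sets. All probe sets include those at the low end, where few pass: of the olfactory receptor probe sets, 0.275% did. The enzymes were chosen with earlier results of these data known.

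**Figure D1:**
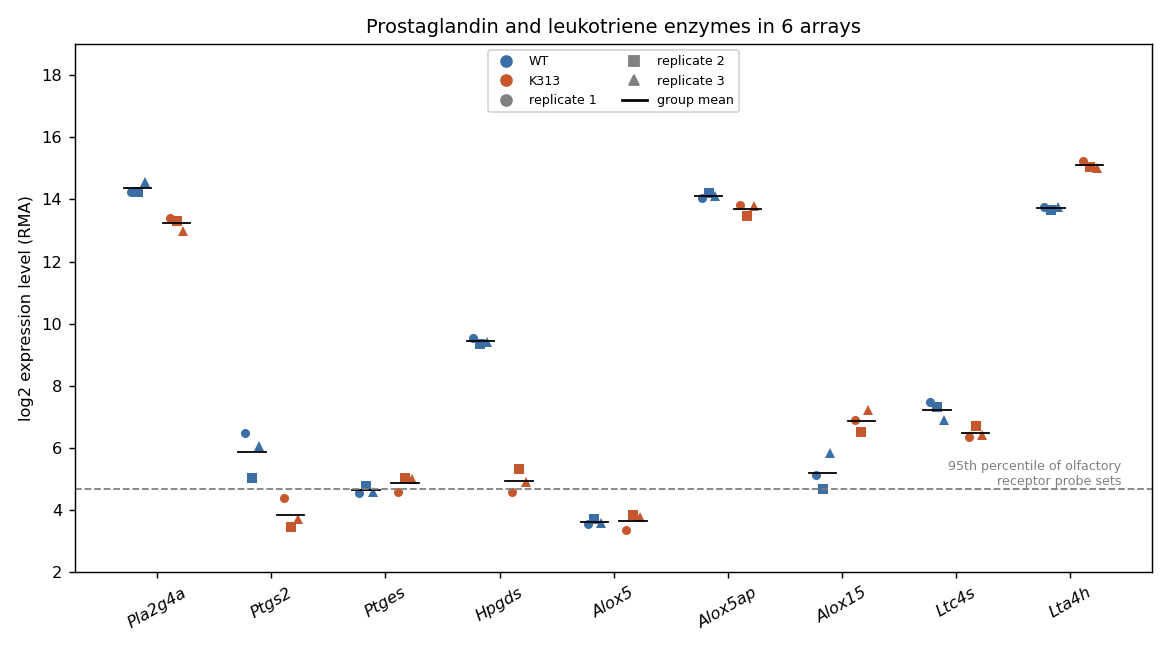
Log2 expression level (vertical axis) of each enzyme in the 3 WT (blue) and 3 K313 (orange) arrays, with symbols for the replicates and bars for the group means; the dashed line is the 95th percentile of olfactory receptor probe sets, 4.68. Hpgds drops from about 9.4 to near the dashed line, Lta4h and Alox15 are higher in all K313 arrays, and Alox5 lies under the line in every array.

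The table has no detection calls. As a guide to its low end, the 1091 olfactory receptor probe sets had a median level of 3.52, with 95% of them at or below 4.68. Correlations over all probe sets were 0.994 to 0.996 within a group and 0.983 to 0.989 across groups. WT replicate 3 stood nearest to K313, with a mean correlation of 0.988 against 0.984 to 0.985 for the other WT arrays. Without that array the count was again 6 of 9, the same 6 enzymes, in the same directions. The groups differed in more than the C/EBPα form. Hoxb8 itself was lower in K313 (8.34 ± 0.25 against 12.98 ± 0.52 in WT, SD, n = 3), and the Y-linked Eif2s3y was higher (12.23 ± 0.14 against 4.36 ± 2.32), with limma adjusted p = 1.15e-06 and 9.04e-05; both genes were chosen after their values were seen. Among the WT arrays, Eif2s3y read 3.11, 2.93 and 7.03 in replicates 1 to 3, so WT replicate 3 lay apart from the others but below every K313 array. Effects of the C/EBPα form and of these differences on the enzymes cannot be told apart.

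Release of arachidonic acid comes first. Pla2g4a (NCBI gene 18783), the phospholipase that responds to calcium and prefers arachidonate, had log2 levels of 14.24, 14.25 and 14.57 in WT and of 13.41, 13.32 and 12.99 in K313. All 3 K313 values were lower than any WT value, and replicates differed by at most 0.33 in WT and 0.42 in K313. Pla2g4a fell by 1.11 ± 0.18 on the log2 scale (SE, n = 3 per group; limma adjusted p = 0.00191), a 2.16-fold difference. The arrays hold bulk RNA, in which fewer cells of a type and less RNA per cell cannot be told apart.

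Among 17 other measured genes of phospholipid cleavage and the return of fatty acids to membranes, 3 passed, 1 higher and 2 lower. Mboat1, a lysophospholipid acyltransferase, rose from 4.61, 4.20 and 4.69 to 7.93, 8.31 and 7.70, a change of 3.48 ± 0.20 (limma adjusted p = 1.77e-06). Its WT mean of 4.50 lay inside the olfactory receptor range, so the size is a compressed estimate. The acyltransferases Lpcat2 and Mboat7, the latter an enzyme that returns arachidonate to phosphatidylinositol, fell by 0.85 ± 0.17 (limma adjusted p = 0.00910) and fell by 0.86 ± 0.20 (0.0210). Lpcat2 missed the threshold without K313 replicate 2 (0.0520). Mboat7 missed it without WT replicate 1 (0.0801), WT replicate 3 (0.0526) or K313 replicate 1 (0.0768). The platelet activating factor hydrolase Pla2g7 did not pass (0.38 ± 0.16, 0.228) and 8 of the 17 probe sets stayed inside the olfactory receptor range in both groups.

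The next step belongs to cyclooxygenase. Ptgs2 (NCBI gene 19225), the inducible form, read 6.48, 5.02 and 6.07 in WT and 4.38, 3.45 and 3.73 in K313. WT replicate 2 and K313 replicate 1 came closest, 0.64 apart, and the groups did not overlap. Ptgs2 fell by 2.0 ± 0.34 (limma adjusted p = 0.00343), a 4.01-fold difference. Its K313 mean of 3.85 lay inside the olfactory receptor range, so the fold is a compressed estimate. Replicates of Ptgs2 varied more than those of any other enzyme of the set, with an SD of 0.75 in WT and 0.48 in K313.

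Pla2g4a and Ptgs2 are next to each other on chromosome 1 in the RefSeq annotation of GRCm38.p6, with no other protein-coding gene between them. To see whether other called enzymes had neighbours that changed, the nearest protein-coding gene with a probe set on each side was read for all 6, a choice made after their values were seen. Of the 10 neighbours that are not enzymes of the set, 0 passed with limma. An unadjusted limma p under 0.05 was seen for 3, Brinp3 (0.37 ± 0.15), Pdc (-0.47 ± 0.17) and Sqstm1 (-0.39 ± 0.15). The share of all probe sets under that unadjusted threshold was not counted, so these 3 are not read as changes. Brinp3 and Pdc lay inside the olfactory receptor range in both groups. The 10 neighbours include Alox12e, a lipoxygenase beside Alox15, which differed by 0.26 ± 0.16 (limma adjusted p = 0.459).

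Promoter sequences of this pair are shown because the genes are adjacent, fell together, and differ in the motif searched. The RefSeq promoter table (GRCm38.p6) held 8 of the 10 listed genes, and the 250 bases before each start were searched on both strands for the C/EBP motif TTGCNNAA and the GATA motif AGATAA. Such matches are frequent: 9.56% of the 32851 promoter windows of the table hold the first and 9.99% the second. Other forms of either site were not searched, so a window without a match may still hold one. Capitals mark a match, and lower case letters the rest, in 5′ to 3′ direction of the gene.
Ptgs2, chr1:150099781-150100030, plus strand: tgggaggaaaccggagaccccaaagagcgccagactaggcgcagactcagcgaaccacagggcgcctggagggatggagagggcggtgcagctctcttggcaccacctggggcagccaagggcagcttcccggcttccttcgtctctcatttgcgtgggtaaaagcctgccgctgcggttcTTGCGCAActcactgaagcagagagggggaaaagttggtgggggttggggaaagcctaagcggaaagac
Pla2g4a, chr1:149961291-149961540, minus strand: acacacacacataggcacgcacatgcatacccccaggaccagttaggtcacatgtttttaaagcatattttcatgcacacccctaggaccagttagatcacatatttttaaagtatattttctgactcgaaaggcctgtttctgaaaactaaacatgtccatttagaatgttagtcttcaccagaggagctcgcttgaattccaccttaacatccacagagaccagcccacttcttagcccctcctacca
The Ptgs2 window holds the palindrome TTGCGCAA, which matches on both strands, 69 to 62 bases before the start. In the Pla2g4a window neither motif was found, and the same held for its other annotated start. A match is a string of letters and no evidence of binding, and no binding was measured here.

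Terminal synthases then fix the kind of prostaglandin. Hpgds (NCBI gene 54486), which makes prostaglandin D2 in blood cells, read 9.55, 9.34 and 9.42 in WT and 4.59, 5.31 and 4.92 in K313. The groups were 4.03 apart at their closest, the widest gap of the set, while WT replicates lay within 0.21 of each other. Hpgds fell by 4.50 ± 0.19 (limma adjusted p = 4.21e-07), a 22.6-fold difference. By size it ranked 12 among the falls of all 22206 probe sets, and by p it ranked 7 among all changes. Its K313 mean, 4.94, lay between the 95th and 99th percentiles of the olfactory receptor probe sets (4.68 and 5.27), so the fold is again a compressed estimate.

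A 30-base stretch of the Hpgds window is shown because it too holds the C/EBP motif, on the opposite strand, 176 to 169 bases before the start. That start is not the outermost of the RefSeq record, so the stretch may lie inside a longer transcript.
Hpgds, chr6:65144888-65144917, minus strand: gactttactctTTATGCAAatacgttggac
The promoter windows of Ltc4s and Lta4h, also called, held neither motif, nor did those of Ptgs1, Ptges and Alox5, and Alox15 and Alox5ap were not in the table. The string AGATAA was found in none of the windows of the set, and other forms of a GATA site were not searched. The Lta4h window is shown as that of an enzyme that rose.
Lta4h, chr10:93453146-93453395, plus strand: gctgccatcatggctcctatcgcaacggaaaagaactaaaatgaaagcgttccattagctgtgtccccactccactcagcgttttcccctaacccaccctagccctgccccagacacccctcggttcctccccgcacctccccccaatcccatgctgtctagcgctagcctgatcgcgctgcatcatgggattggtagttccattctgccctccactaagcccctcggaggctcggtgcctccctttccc

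Ptges (NCBI gene 64292), the inducible prostaglandin E synthase of the membrane, read 4.56, 4.77 and 4.60 in WT and 4.58, 5.04 and 4.99 in K313. The groups overlapped, and the difference of 0.23 ± 0.17 did not pass (limma adjusted p = 0.588; 95% interval before adjustment -0.15 to 0.61). Its levels straddled the top of the olfactory receptor range, which limits what a difference there could show. The other prostaglandin E synthases did not pass either: Ptges2 differed by 0.23 ± 0.19 and Ptges3 by -0.21 ± 0.25 (limma adjusted p = 0.623 and 0.766).

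Of 7 other prostanoid synthases measured, 1 passed. This was Ptgds, the lipocalin-type enzyme that also makes prostaglandin D2, which read 8.63, 6.14 and 6.86 in WT and 5.02, 4.84 and 5.20 in K313. All K313 values were below the WT values, which were widely spread. Ptgds fell by 2.19 ± 0.48 (limma adjusted p = 0.0150). Without WT replicate 1, the highest array, the change was -1.48 (adjusted p = 0.00314), and the call was lost without K313 replicate 1, 2 or 3 (adjusted p = 0.0526, 0.0635 and 0.0511). Tbxas1, which makes thromboxane, differed by -0.61 ± 0.26 with overlapping groups (limma adjusted p = 0.251).

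On the lipoxygenase route, Alox5 (NCBI gene 11689), the enzyme that starts leukotriene synthesis, was at the low end in every array. It read 3.56, 3.72 and 3.59 in WT and 3.36, 3.84 and 3.77 in K313, all near the olfactory receptor median. The difference was 0.03 ± 0.17 (limma adjusted p = 0.957; 95% interval -0.35 to 0.41), and its sign turned under 4 alternatives, quantile normalization and a common median among them. A probe set that does not respond and a transcript that is absent cannot be told apart at such a level.

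Alox5ap (NCBI gene 11690), the membrane protein that presents arachidonate to Alox5, read 14.05, 14.22 and 14.10 in WT and 13.81, 13.48 and 13.80 in K313. Every K313 array was below every WT array, by as little as 0.24. The difference of -0.43 ± 0.16 did not pass (limma adjusted p = 0.174; 95% interval before adjustment -0.78 to -0.07). The interval leaves out the Pla2g4a estimate of -1.11 but overlaps the Pla2g4a interval, -1.50 to -0.73. Whether the 2 changes differ was not tested.

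Alox15 (NCBI gene 11687), the mouse 12/15-lipoxygenase known from eosinophils and resident macrophages, went up. It read 5.12, 4.67 and 5.84 in WT and 6.89, 6.53 and 7.23 in K313. WT replicate 3 was the highest of its group and K313 replicate 2 the lowest of the other, and they stayed 0.69 apart. The change was 1.67 ± 0.28 (limma adjusted p = 0.00287), a 3.19-fold difference from a WT mean of 5.21, under the 99th percentile of the olfactory receptor probe sets. Without WT replicate 3 it was 1.99.

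Among 8 other lipoxygenases and partner genes, 1 passed. Cotl1, a coactosin-like protein that binds Alox5, fell by 0.71 ± 0.15 (limma adjusted p = 0.0143), a call lost without WT replicate 1 (0.0503), K313 replicate 2 (0.0616) or K313 replicate 3 (0.0577). The 8 include Alox8 (0.21 ± 0.20) and Alox12e, which did not pass, and 5 of the 8 stayed inside the olfactory receptor range in both groups.

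Leukotriene A4 is the branch point, and the 2 enzymes of the set that act on it changed in opposite directions. Lta4h (NCBI gene 16993), which hydrolyses it to leukotriene B4, read 13.74, 13.65 and 13.77 in WT and 15.23, 15.04 and 15.01 in K313. The groups were 1.24 apart and had the narrowest spread in WT of the set, an SD of 0.06. Lta4h rose by 1.37 ± 0.15 (limma adjusted p = 0.000127), a 2.59-fold difference.

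Ltc4s (NCBI gene 17001), which joins leukotriene A4 to glutathione, read 7.47, 7.32 and 6.89 in WT and 6.36, 6.70 and 6.43 in K313. WT replicate 3 and K313 replicate 2 came within 0.19 of each other without crossing. Ltc4s fell by 0.73 ± 0.19 (limma adjusted p = 0.0382), a 1.66-fold difference and the weakest call of the set. It held without WT replicate 3 (-0.90, adjusted p = 0.0175) and was lost when any other single array was left out, with adjusted p between 0.0545 and 0.131. The 95% intervals of the change before adjustment were 1.04 to 1.71 for Lta4h and -1.15 to -0.31 for Ltc4s. Given calls in opposite directions these could not overlap, so they add nothing to the calls.

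**Figure D2:**
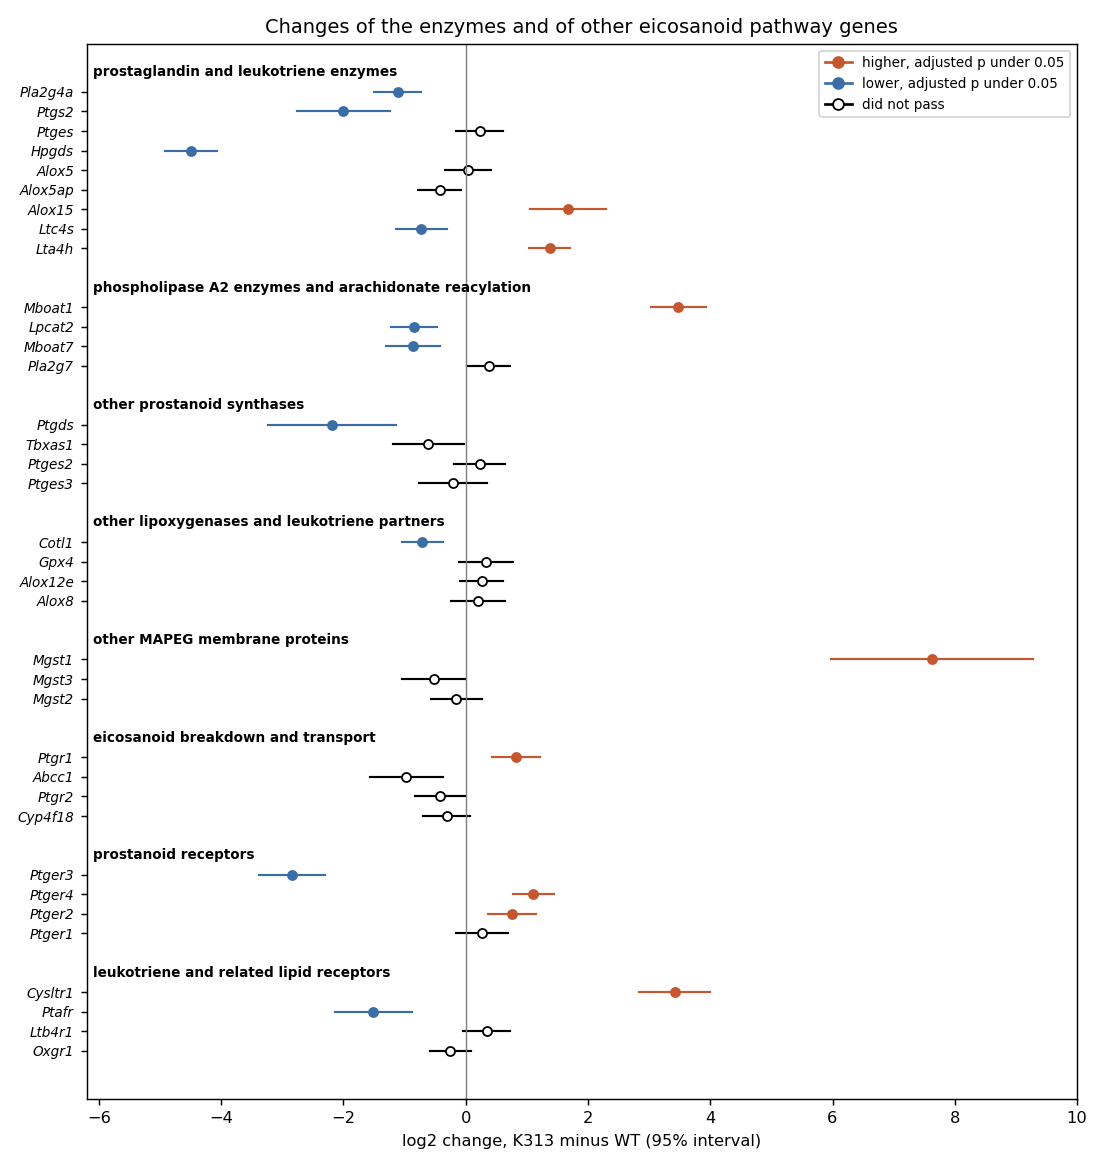
Log2 change, K313 minus WT, with its 95% interval before adjustment (horizontal axis) for the 9 enzymes and for up to 4 genes with the smallest p in each list of other pathway genes; filled points passed limma at an adjusted p under 0.05. Hpgds shows the largest fall, Lta4h and Ltc4s lie on opposite sides of 0, and Mgst1 lies far to the right with the widest interval.

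Ltc4s, Alox5ap and Ptges belong to the MAPEG family, small membrane proteins of eicosanoid and glutathione metabolism, whose other members are the microsomal glutathione transferases Mgst1, Mgst2 and Mgst3. Mgst1 was the 1 of these 3 that passed. It read 5.52, 6.26 and 9.46 in WT and 14.86, 14.65 and 14.63 in K313, a rise of 7.63 ± 0.75 (limma adjusted p = 5.38e-05) in which WT replicate 3 stood between the groups. The rise was 8.82 without that array and 6.85 without WT replicate 1. Mgst2, which can also make leukotriene C4, differed by -0.15 ± 0.19 (0.771) and Mgst3 by -0.52 ± 0.23 (0.271), both with overlapping groups. The family thus held 1 rise, the fall of Ltc4s and 4 members that did not pass.

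Receptors showed changes in both directions. Of 9 prostanoid receptors, 2 rose and 1 fell. Ptger3, a prostaglandin E2 receptor that lowers cyclic AMP, read 10.33, 9.73 and 10.21 in WT and 7.24, 6.79 and 7.72 in K313 and fell by 2.84 ± 0.24 (limma adjusted p = 2.06e-05). The prostaglandin E2 receptors that raise cyclic AMP went the other way. Ptger4 rose by 1.11 ± 0.15 (limma adjusted p = 0.000679), from 5.34 to 6.44. Ptger2 rose by 0.76 ± 0.18 (0.0220) from a WT mean inside the olfactory receptor range, 4.36. Ptger2 missed the threshold without WT replicate 2 or 3 (0.0740 and 0.0501) and without K313 replicate 1 or 3 (0.0723 and 0.0940). The fourth prostaglandin E2 receptor, Ptger1, differed by 0.26 ± 0.19 (0.559).

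Of 5 measured leukotriene and related lipid receptors, 1 rose and 1 fell. Cysltr1, a receptor for cysteinyl leukotrienes, read 5.04, 4.15 and 5.30 in WT and 8.30, 8.36 and 8.08 in K313. All K313 arrays were higher by at least 2.78, and the rise was 3.42 ± 0.26 (limma adjusted p = 8.27e-06) from a WT mean of 4.83, near the low end. The receptor for platelet activating factor, Ptafr, fell by 1.51 ± 0.29 (0.00654). Ltb4r1, the high-affinity receptor for leukotriene B4, differed by 0.34 ± 0.17 and did not pass (0.348; 95% interval -0.04 to 0.73).

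Among 10 genes of eicosanoid breakdown and transport, 1 passed. Ptgr1, a reductase that inactivates prostaglandins and leukotriene B4, rose by 0.83 ± 0.18 (limma adjusted p = 0.0138), a call lost without WT replicate 2 (0.0515), K313 replicate 1 (0.0607) or K313 replicate 2 (0.0512). The leukotriene C4 exporter Abcc1 read 11.45, 12.73 and 12.24 in WT and 11.21, 11.15 and 11.15 in K313 and missed the threshold (-0.97 ± 0.27, 0.0526). It passed under 6 of the 13 alternatives run, with a common median (0.0297), the filter on low probe sets (0.0412), an intensity trend (0.0308), array weights (0.0314), the replicate block (0.0483) and without WT replicate 1 (-1.32, 0.00200). Over all 7 lists of other pathway genes, 6 of 59 probe sets rose and 6 fell, together 20.3% against 7.75% of all probe sets, and 24 of the 59 stayed inside the olfactory receptor range in both groups. Their median change was 0.04, against 0.02 over all probe sets.

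The probe sets closest to each called enzyme were found among 17087 named ones by the root mean square difference of the log2 values over the 6 arrays, each centred on its own mean. For Lta4h these were Tle3, Tec and Cyth1 (0.09 to 0.10). For Pla2g4a they were Pot1b, Ip6k2 and Sh2d3c (0.07 to 0.10), and for Ltc4s Glod5, Prkab1 and Map4k4 (0.11). Alox15 was nearest to Zfp493, Paqr8 and Pecr (0.13 to 0.19), which shared its intermediate value in WT replicate 3. Ptgs2 was nearest to Tnfaip3, Pstpip2 and Cd300ld (0.24 to 0.31), which shared its low value in WT replicate 2. Hpgds had the loosest match at best, with Zfp846, Gpr183 and Fgf3 (0.31 to 0.33), all among the large falls. With 6 arrays in 2 groups, this measure of likeness includes the size of the group difference.

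**Figure D3:**
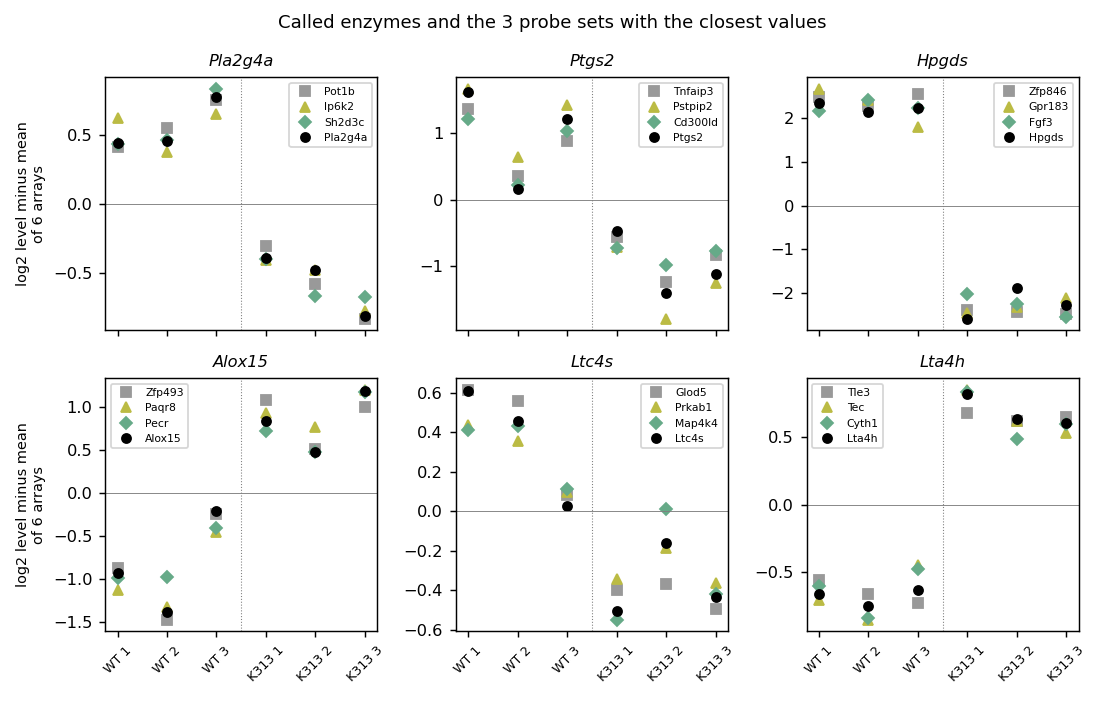
Log2 level minus the mean of the 6 arrays (vertical axis) by array (horizontal axis) for the 6 called enzymes (black circles) and the 3 probe sets closest to each (other symbols), 1 panel per enzyme. Alox15 and its neighbours in value share a higher WT replicate 3, and the Hpgds panel shows the groups about 4.5 apart.

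Several of these enzymes are known from other blood cells, so marker lists were read beside them; their counts stand against 3.77% of all probe sets higher and 3.97% lower. The neutrophil precursor list had 4 of 11 probe sets higher in K313, and its mean log2 level per array was 10.1 to 10.2 in WT and 10.8 to 11.2 in K313. The 4 that passed were Elane (3.29 ± 0.28), Ctsg (1.75 ± 0.16), Prtn3 (0.94 ± 0.17) and Ms4a3 (0.81 ± 0.18), with limma adjusted p from 1.94e-05 to 0.0183. Myeloperoxidase, Mpo, was at the top of the scale in both groups (18.4), while the granule genes of later neutrophil stages differed among themselves. Ltf and Camp stayed inside the olfactory receptor range. Ngp read 3.30, 3.91 and 3.70 in WT and 4.24, 4.59 and 6.24 in K313, without overlap, and did not pass (limma adjusted p = 0.0752). Fcnb lay above that range, at 6.62 in WT and 7.03 in K313, with overlapping groups.

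Of 12 basophil and mast cell markers, 6 fell, 1 rose and 5 did not pass, with a mean log2 level of 10.6 to 10.97 in WT and 9.91 to 10.2 in K313. Cd200r3 fell by 4.03 ± 0.23 and the chymase Cma1 fell by 3.29 ± 0.33, while the protease Prss34 rose by 3.98 ± 0.21 (limma adjusted p from 1.16e-06 to 6.39e-05). The carboxypeptidase Cpa3 was 17.2 in WT and 16.8 in K313, and did not pass. Levels ranged widely over the list: Fcer1a was inside the olfactory receptor range in both groups (3.63 and 3.64), and Tpsb2 just above it (4.82 and 4.89). Of 6 eosinophil probe sets 3 fell, with Il5ra changing by -2.88 ± 0.21, and the list mean was 8.98 to 9.34 in WT and 7.98 to 8.36 in K313. Ccr3 and Ear6 were inside the olfactory receptor range.

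Of 6 megakaryocyte and platelet probe sets 3 fell, with list means of 6.63 to 6.68 in WT and 5.33 to 5.52 in K313. The 3 were Gata1 (-3.69 ± 0.24), Gp9 (-2.68 ± 0.18) and Itga2b (-1.09 ± 0.23), with limma adjusted p from 3.31e-06 to 0.0114. Itga2b missed the threshold without K313 replicate 1 or 3. Pf4 was higher in K313 by 0.38 ± 0.17 and did not pass (limma adjusted p = 0.272). Ppbp and Gp6 were inside the olfactory receptor range in both groups. The monocyte and macrophage list moved both ways, 3 of 8 higher and 2 lower, with list means of 7.36 to 7.47 in WT and 7.78 to 8.09 in K313 and Klf4 inside the olfactory receptor range. Ms4a6c rose by 4.32, while the macrophage markers Cx3cr1 and Adgre1 fell by 2.04 and fell by 0.78 (limma adjusted p = 7.36e-06, 9.06e-05 and 0.0270). Ly6c2 and Ccr2 also rose, by 1.77 and 0.87 (limma adjusted p = 0.0376 and 0.0438). Adgre1 missed the threshold without WT replicate 2 or 3 or K313 replicate 2 or 3 (0.0698, 0.106, 0.107 and 0.116). Its call was also lost with the replicate block and with ordinary variance. Without Ms4a6c, an alternative chosen after seeing the data, the list means were 7.32 to 7.42 in WT and 7.18 to 7.58 in K313 and overlapped. Its 5 calls became 3 without WT replicate 1 or 2 and 2 without WT replicate 3 or K313 replicate 2. The means of the basophil and mast cell, eosinophil and megakaryocyte lists were thus lower in every K313 array than in any WT array. The neutrophil precursor mean was higher, and so was the monocyte mean while Ms4a6c was included. With 2 groups, every called enzyme moves with some list, so a shared direction does not tie an enzyme to a cell type. The basophil and mast cell, eosinophil, megakaryocyte and neutrophil precursor lists kept the groups apart in the same direction without their markers of largest change. Their part in the changes of the enzymes was not tested.

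**Figure D4:**
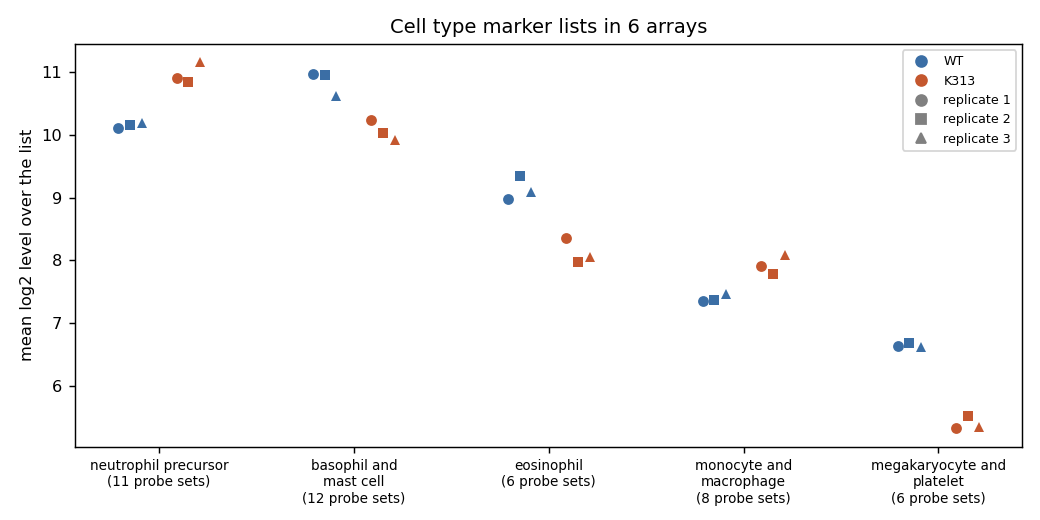
Mean log2 level over each cell type marker list (vertical axis) in the 3 WT (blue) and 3 K313 (orange) arrays, with symbols for the replicates and the number of probe sets under each list. K313 arrays lie above WT arrays in the neutrophil precursor and monocyte lists (the latter overlap without Ms4a6c) and below them in the other 3.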

How the data were processed

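Total RNA from 6 samples was hybridised to Affymetrix Mouse Clariom S arrays. The authors deposited log2 expression values with 2 decimals. RMA, which corrects background, normalizes between arrays and summarizes probes, and the Transcriptome Analysis Console are named, without versions, in the submitters' processing notes. RMA puts arrays on a common scale, so a change in total RNA may not show; the medians of the deposited arrays still ran from 5.01 to 5.13. Folds from low levels are compressed. Arrays have no read depth; 3 per group limit the precision (median SE of a change 0.18).

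Groups came from the sample titles. Of the 22206 probe sets, 19572 had 1 gene symbol in the platform annotation and 2634 had none. limma 3.58.1 (R 4.3.3) was fitted to all probe sets with group as the only term, eBayes with its default prior, two-sided, with Benjamini-Hochberg adjustment at 0.05; all adjusted p come from this fit unless an alternative is named. Changes are K313 minus WT. The fit was tested on simulated data. The enzymes, the pathway and marker lists and the naming rule were chosen with earlier results of these data known. The rule named all enzymes, up to 4 genes of each pathway list with the smallest p, and the 3 closest probe sets of each called enzyme. The olfactory receptor reference and the reading of neighbouring genes were added after the values were seen. Promoter sequences are from RefSeq (GRCm38.p6). The genome build behind the array was not stated in the sources used here. The 13 alternatives are described in the closing section.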

Additional observations from a re-analysis of the deposited data

How the results depend on the processing

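The enzymes, the named pathway genes, the 3 leading called genes of each marker list and the counts were recomputed under 13 alternatives; neighbouring genes and probe sets closest in value were not. The filter left out Alox5, Pla2g7, Alox12e and Oxgr1, which have 12. The alternatives were quantile normalization, a shift to a common median, a filter dropping the 30% of probe sets with the lowest means, an intensity trend with robust prior, ordinary variance, array quality weights, a replicate block, and leaving out each array. Hpgds and Lta4h passed in all 13, and Pla2g4a, Ptgs2 and Alox15 in all but ordinary variance (adjusted p = 0.0782, 0.198 and 0.171). Ltc4s passed in 4 and was also lost with an intensity trend (0.0561) and array weights (0.0648). Ordinary variance, which estimates each probe set's spread from its own 6 arrays alone, gave 2 enzymes, 4 other pathway genes and 496 probe sets in all, in place of 6, 12 and 1720. Leaving out 1 array gave 5 to 6 enzymes, 8 to 11 other pathway genes and 1228 to 1465 probe sets. Of the enzymes, Alox5 alone changed sign, to -0.00278 with quantile normalization and -0.0433 with a common median, and over the fits without 1 array it ran from -0.0583 to 0.182. Over those fits Ptges3 ran from -0.403 to 0.112 and Mgst2 from -0.282 to 0.00833. Over all probe sets, same-numbered arrays did not deviate together (r = -0.06, 0.03 and -0.06), which cannot exclude that the numbers pair the samples. The replicate block lowered the SE of Ptgs2 (0.344 to 0.195) and Alox15 (0.280 to 0.177). It raised that of Pla2g4a (0.176 to 0.197), Hpgds (0.195 to 0.206), Alox5ap (0.161 to 0.179) and Lta4h (0.151 to 0.167), and changed the other enzymes little. With the replicate block 5 enzymes passed (Ltc4s 0.0511), 13 other pathway genes and 1546 probe sets, and no WT array correlated best with the K313 array of its own number.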
